A study of Mus musculus with 14 samples.

Results

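The histone genes were the protein-coding mouse genes of the RefSeq annotation whose symbols begin with H1f, H2ac, H2bc, H3c or H4c and a number. The set also holds replacement and germ cell histone genes, among them H1f0, H2ac1 and H2bc1. Its members were 67 of 21843 protein-coding genes. By family they were 10 linker histone H1 genes, 17 H2A, 16 H2B, 12 H3 and 12 H4 genes. A cluster of 53 lay on chromosome 13 (chr13:21715711-23934913) and a cluster of 10 on chromosome 3 (chr3:96219885-96270192), while 4 H1 genes stood alone, H1f0 and H1f7 on chromosome 15 and H1f8 and H1f10 on chromosome 6. No gene with such a symbol lay on chromosome 11, and the histone genes found there and beside one another on chromosome 6 carry other names. Coordinates are those of mm10, which the gene table lists as GRCm38.p6.

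The measurements were ChIP-seq peak lists from E14 mouse embryonic stem cells, a line grown here on gelatin in medium with LIF and 2 kinase inhibitors. Vehicle cells received DMSO and treated cells 1 µM doxorubicin, an anthracycline that traps topoisomerase II on DNA and causes strand breaks. Exposure lasted 6 h, the drug was washed out for 6 h, and cells were harvested at 12 h and fixed with 1% formaldehyde for 10 min. The 7 groups of 2 libraries each were H3K27ac in vehicle, H3K27ac in doxorubicin, H3K9me3 in vehicle, H3K9me3 in doxorubicin, HA ChIP of HA-tagged p53, HA ChIP of cells without the tag, and input chromatin of doxorubicin-treated cells. The treatment of the HA samples is not named in their titles, and how the tag was joined to p53 is not stated in the labels.

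Nucleosomes wrap DNA around an octamer of the core histones H2A, H2B, H3 and H4, and linker histone H1 binds where DNA enters and leaves. Most genes of these families are replication-dependent: they are short and lack introns, their mRNAs end in a conserved stem-loop in place of a poly(A) tail, and they are transcribed in S phase at the histone locus body, where NPAT acts as coactivator. H3K27ac marks active promoters and enhancers, and H3K9me3 marks constitutive heterochromatin and silenced repeats. Many H2A and H2B genes stand head to head and share the stretch between their starts.

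The authors called each list on both libraries of a group pooled, so a group has 1 list, there is no spread between replicates, and no test of treatment was possible. The H3K27ac lists rested on 20647895 fragments in vehicle and 17036528 in doxorubicin, the H3K9me3 lists on 15992125 and 14402634, the p53 list on 45238471, the untagged list on 49588950 and the input list on 16583331. All 10 stem cell marker genes examined, among them Pou5f1, Nanog and Sox2, had H3K27ac in both lists. Of the 10 fibroblast marker genes examined, 2 had a region in vehicle and 4 in doxorubicin, and Col1a2, Col3a1, Twist1, Pdgfra, Postn and Dcn had none. Copies of histone genes are nearly identical in their coding parts, and the handling of reads that match several copies, not given in the sources used here, may let a value hold reads of another copy.

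Upstream sequences of 62 of the 67 genes were matched in the RefSeq promoter table (GRCm38.p6). They are shown 5′ to 3′ on the strand of the named gene, ending at the base before its start and cut where the next annotated gene begins. Capitals mark matches to short motifs, on either strand and at any distance from the start. The motifs were TATAAA (the core of the TATA box), CCAAT (the NF-Y site), ATTTGCAT (the octamer) and AAACACA (the AC box). A TATAAA match here need not be a TATA box. The first stretch lies between the starts of H2ac12 and H2bc12 (chr13:22035644-22035820, shown on the H2bc12 strand), a pair whose H3K27ac region was split at this stretch in doxorubicin. The next lies between H2ac22 and H2bc22 (chr13:21787249-21787487, H2bc22 strand) and is shown because a p53 region covered part of it. The others precede H4c6 (chr13:23551669-23551918, minus strand) and H2ac21 (chr3:96219635-96219884, plus strand), which had the lowest H3K27ac ratio of each cluster, and H1f3 (chr13:23554782-23555031, plus strand), an H1 gene with a higher value in doxorubicin that was picked after its values were seen.
H2bc12: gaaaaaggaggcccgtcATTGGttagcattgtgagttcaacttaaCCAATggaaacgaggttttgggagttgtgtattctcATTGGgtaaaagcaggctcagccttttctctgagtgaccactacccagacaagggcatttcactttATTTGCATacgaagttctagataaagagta
H2bc22: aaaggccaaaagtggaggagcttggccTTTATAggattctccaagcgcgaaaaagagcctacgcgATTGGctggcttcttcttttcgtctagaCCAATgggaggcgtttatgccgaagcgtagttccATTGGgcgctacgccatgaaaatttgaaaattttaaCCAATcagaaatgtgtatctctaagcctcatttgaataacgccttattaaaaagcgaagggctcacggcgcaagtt
H4c6: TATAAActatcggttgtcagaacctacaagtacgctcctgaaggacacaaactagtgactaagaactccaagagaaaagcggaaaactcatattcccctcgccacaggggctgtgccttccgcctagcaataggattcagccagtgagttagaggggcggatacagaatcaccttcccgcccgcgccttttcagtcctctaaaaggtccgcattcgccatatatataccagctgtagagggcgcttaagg
H2ac21: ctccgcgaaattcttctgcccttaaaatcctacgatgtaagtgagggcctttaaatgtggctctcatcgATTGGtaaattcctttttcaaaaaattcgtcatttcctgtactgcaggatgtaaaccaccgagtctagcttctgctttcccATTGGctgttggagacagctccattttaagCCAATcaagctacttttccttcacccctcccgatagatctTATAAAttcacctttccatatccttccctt
H1f3: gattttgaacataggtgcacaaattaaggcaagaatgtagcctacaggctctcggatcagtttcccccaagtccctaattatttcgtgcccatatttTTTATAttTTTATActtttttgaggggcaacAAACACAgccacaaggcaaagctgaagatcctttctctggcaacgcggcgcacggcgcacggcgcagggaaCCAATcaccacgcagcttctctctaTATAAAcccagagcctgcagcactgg

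These letters were common upstream of histone genes. In the 250 bases before the start, CCAAT was found in 49 of 62 members (79.0%) and in 39.5% of the 17492 protein-coding promoters of the same length. It was present in all 17 H2A and all 14 H2B promoters matched, in 8 of 10 H3 promoters, and in 3 of 11 H4 promoters. TATAAA was found in 28 members (45.2%) against 13.7% of all promoters. ATTTGCAT, which POU factors such as Oct-1 bind, was found in 7 of 14 H2B and 6 of 17 H2A promoters and in no H1, H3 or H4 promoter, against 1.80% of all promoters. AAACACA, described upstream of H1 genes, was found in 5 of 10 H1 promoters and in 6.39% of all promoters. The decamer of p53 response elements was found in 4 members (6.45%), H4c9, H4c11, H4c12 and H2ac19, against 7.34% of all promoters. Head-to-head genes share their upstream stretch, so 1 match can count for both, as the octamer of H2ac12 and H2bc12 does. Genes are therefore not separate promoters in these counts, and the 250 bases can run into a neighbouring gene. None of these motifs contains another, and a match here is a description of the letters.

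A gene was counted as having a mark where a region of the list came within 1000 bp of either gene end. H3K27ac was found at 62 of the 67 histone genes in vehicle (92.5%; 95% Wilson interval 83.7 to 96.8) and at 65 in doxorubicin (97.0%; 89.8 to 99.2). The shares of all protein-coding genes were 52.4% in vehicle and 56.9% in doxorubicin. All 10 genes of the chromosome 3 cluster had the mark in both lists, and on chromosome 13 the vehicle list had it at 50 of 53 genes and the doxorubicin list at 51. Intervals throughout cover counting error only. Wilson intervals treat each gene as separate, so they are too narrow where genes share regions. Many members share a region, since the 62 genes met 53 distinct regions in vehicle, of which 31 served more than 1 member, and the 65 genes met 59 in doxorubicin, of which 33 did; genes are therefore not separate measurements.

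The histone genes without the mark in 1 or both lists were mostly those made in germ cells. H2ac1 and H2bc1, the head-to-head pair of testis H2A and H2B genes at the edge of the chromosome 13 cluster, had no H3K27ac region in either list. Levels are given as the fragment pileup at the highest summit near a gene per 1000000 fragments of the list (FPM). That summit can lie at different places in vehicle and doxorubicin. H1f6, which encodes the testis linker histone H1t, was listed in doxorubicin only, at 1.35 FPM. H1f7, a linker histone of spermatids, was listed in doxorubicin only at 0.998 FPM, and H1f10, the H1x gene, in doxorubicin only at 0.528 FPM. No member was listed in vehicle only. Among all protein-coding genes 8.6% were listed in doxorubicin only and 4.06% in vehicle only. The lowest pileup that entered the lists was 0.436 FPM in vehicle and 0.470 in doxorubicin, so H1f10 lay close to that floor.

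The 62 histone genes with a region in both lists ranged from 0.484 to 10.7 FPM in vehicle with a median of 3.17, and from 0.528 to 7.63 in doxorubicin with a median of 2.76. The vehicle median lay at the 83.7th percentile of genes that had a region, and the doxorubicin median at the 81.3rd percentile. The value was lower in doxorubicin at 55 of the 62 genes (88.7%, Wilson interval 78.5 to 94.4, too narrow because genes share regions). Of all 10552 protein-coding genes with regions in both lists, 48.5% were lower. The median log2 ratio of doxorubicin to vehicle was −0.24 over the members and 0.01 over all genes. In pooled chromatin, fewer cells with the mark and less mark per cell cannot be told apart.

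**Figure D1:**
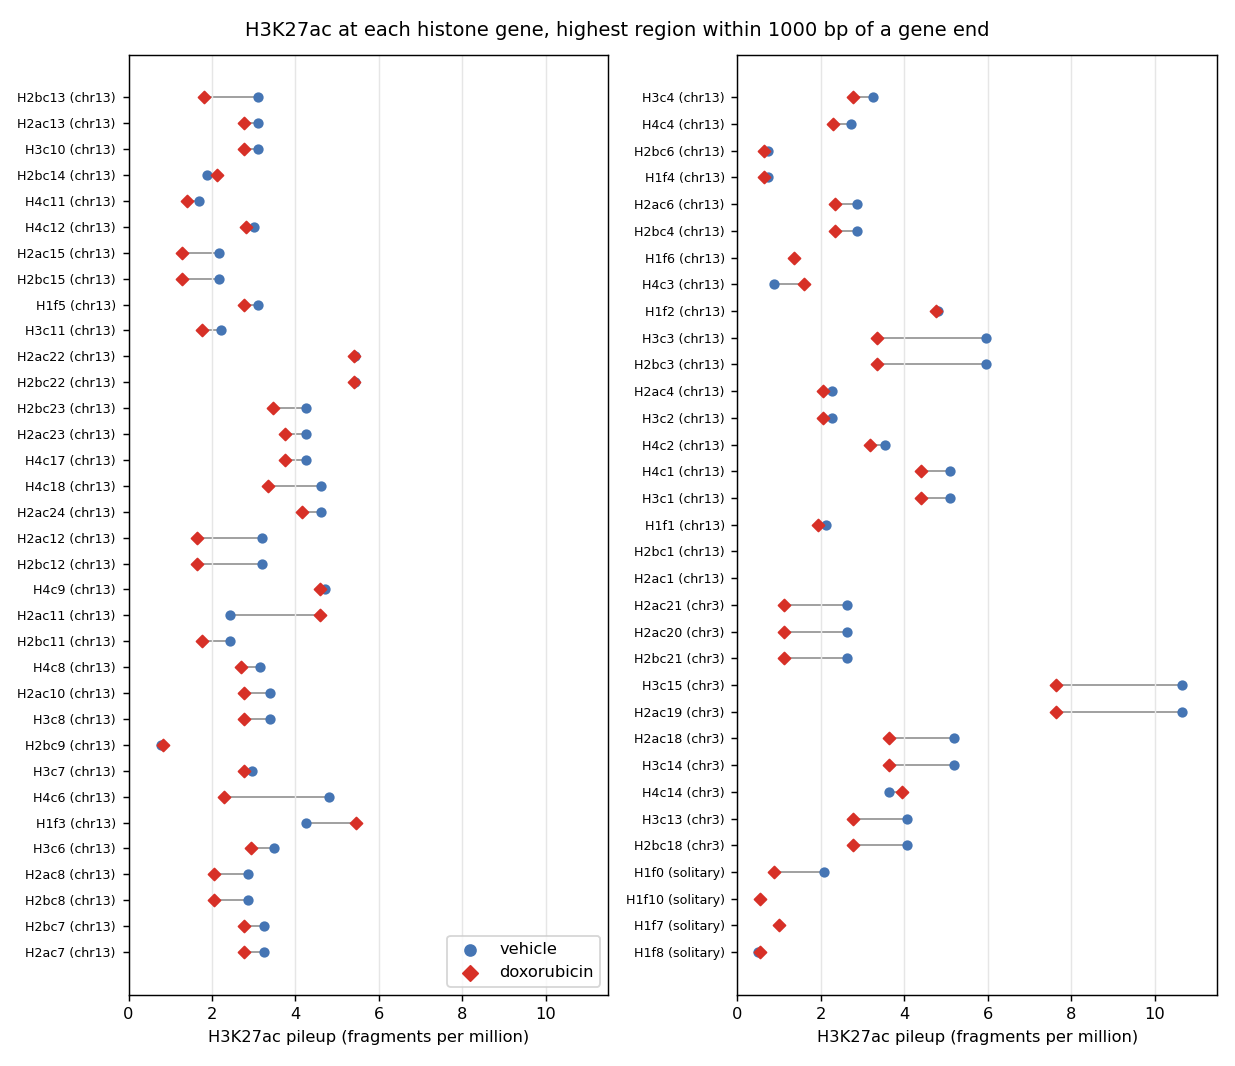
H3K27ac pileup (x axis, FPM) at each of the 67 histone genes, ordered along each chromosome, in vehicle (circles) and doxorubicin (diamonds), with a line joining the values of a gene; there are no error bars because each value comes from 1 pooled list. The highest pair of points is H3c15 with H2ac19, at 10.7 and 7.63 FPM, and H2bc1 and H2ac1 have no point.

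A ratio of 1.5-fold was used to count larger differences. Of the 62 genes, 12 were lower by at least 1.5-fold, where 12.3% of all genes were, and 2 were higher by as much, H2ac11 and H4c3, where 19.1% of all genes were. By the fold over background in the deposited lists in place of the depth-scaled pileup, 35.5% of the members and 20.3% of all genes were lower by 1.5-fold and 3.23% and 12.1% higher; by pileup these shares were 19.4% and 12.3% lower and 3.23% and 19.1% higher. The 95% exact interval of the ratio lay wholly under 1 for 16 members, where 8.5% of all genes did, and wholly over 1 for 1 member, where 11.8% did. Genes that start high tended to be lower in doxorubicin across the genome. Among the 2633 protein-coding genes in the highest quartile of vehicle pileup, the median log2 ratio was −0.25, and among the 46 members in that quartile it was −0.27. In that quartile 44 of the 46 members (95.7%) were lower, against 72.4% of all genes, so the medians were close while the directions of single genes were less mixed. In the third quartile the median was −0.27 for 11 members and −0.09 for all 2614 genes, and in the lowest quartile 0.08 for 5 members and 0.39 for all 2774 genes.

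By family, the value was lower in doxorubicin at all 12 H3 genes, at 15 of 16 H2A genes, 13 of 15 H2B genes, 10 of 12 H4 genes and 5 of 7 H1 genes. The median log2 ratio was −0.46 for H2B, −0.29 for H2A, −0.27 for H3, −0.20 for H4 and −0.14 for H1. Levels in vehicle ran from 2.18 to 10.7 FPM for H2A, 0.726 to 5.96 for H2B, 2.23 to 10.7 for H3, 0.872 to 5.09 for H4 and 0.484 to 4.79 for H1. In doxorubicin they ran from 1.12 to 7.63 for H2A, 0.646 to 5.40 for H2B, 1.76 to 7.63 for H3, 1.41 to 4.58 for H4 and 0.528 to 5.46 for H1. The ranges of all families overlapped between treatments. These medians kept their sign when the deposited fold over background was used in place of the depth-scaled pileup. Of the 7 members that were higher by pileup, H1f3, H2ac11 and H4c3 were higher by that fold too, and H1f8, H2bc9, H2bc14 and H4c14 were then lower.

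In the chromosome 3 cluster the pileup was lower at 9 of 10 genes with a median log2 ratio of −0.54. For those 9 the interval of the ratio lay wholly under 1, where 8.5% of all genes did. The 9 genes are fewer measurements, since the same values serve H2ac21, H2ac20 and H2bc21, H3c15 and H2ac19, H2ac18 and H3c14, and H3c13 and H2bc18. The chromosome 13 cluster had a median of −0.21, with 45 of 50 genes lower and 6 intervals wholly under 1. Among those 6, H2ac12 and H2bc12 had the same values, as did H3c3 and H2bc3. H2ac21, H2ac20 and H2bc21, a group of H2A and H2B genes at the edge of the chromosome 3 cluster, met 1 common region that measured 2.62 FPM in vehicle and 1.12 in doxorubicin. Their common ratio was 0.426 (95% exact interval 0.239 to 0.731), the lowest of that cluster. H3c15, an H3 gene, and H2ac19, its H2A neighbour, had the highest values of all members in both lists, 10.7 in vehicle and 7.63 in doxorubicin, with a ratio of 0.716 (0.572 to 0.894). H4c14, an H4 gene of the same cluster, measured 3.63 in vehicle and 3.93 in doxorubicin, a ratio of 1.08 (0.767 to 1.53) whose interval spans 1. Its highest summit lay inside the gene in vehicle and outside it in doxorubicin.

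On chromosome 13 the lowest ratio was that of H4c6, an H4 gene, at 4.79 FPM in vehicle and 2.29 in doxorubicin, a ratio of 0.477 (0.321 to 0.698). Its upstream stretch, printed above, held no CCAAT, and its only TATAAA match lay at the end farthest from the start. H2ac12 and H2bc12, the head-to-head pair whose shared stretch opens the sequences above, followed with 3.20 and 1.64 FPM and a ratio of 0.514 (0.318 to 0.811). H3c3 and H2bc3, the genes of highest vehicle level in that cluster, measured 5.96 and 3.35 with a ratio of 0.562 (0.403 to 0.775). They were singled out after their values were seen. The vehicle summit lay in H3c3 and the highest doxorubicin summit between the genes, while the doxorubicin region on H3c3 itself measured 2.23 FPM. These 5 genes were picked for low ratios or after their values were seen, so their common direction follows from the choice. The genes of each pair have the same values and are not separate measurements.

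At the other end, H2ac11, an H2A gene, had 2.42 FPM in vehicle and 4.58 in doxorubicin, a ratio of 1.89 (1.31 to 2.75). The doxorubicin value belonged to the region of its neighbour H4c9, which came within 1000 bp of H2ac11 in that list only, while the region on H2ac11 itself measured 1.76 FPM in doxorubicin. H4c9 itself measured 4.70 in vehicle and 4.58 in doxorubicin. H4c3, an H4 gene, had 0.872 in vehicle and 1.58 in doxorubicin, a ratio of 1.82 (0.965 to 3.50). H1f3, which encodes linker histone H1.3, measured 4.26 and 5.46 with a ratio of 1.28 (0.947 to 1.73). The intervals of H4c3 and H1f3 include 1, so neither difference was detectable at this depth.

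Of the solitary H1 genes, H1f7, H1f8 and H1f10 stayed under 1 FPM wherever they were listed. H1f0, which encodes the replacement linker histone H1.0 of differentiated and resting cells, had 3 regions in vehicle with a highest value of 2.08 FPM and 1 region in doxorubicin at 0.880, a ratio of 0.423 (0.218 to 0.776). Those values came from different places, since the highest vehicle region lay past the far end of the gene and the doxorubicin region lay just upstream of its start. A vehicle region of 0.436 FPM, the lowest value listed, overlapped that doxorubicin region, so at the start the value was higher in doxorubicin and the ratio above does not describe 1 place. H1f8, the oocyte linker histone gene, had 0.484 in vehicle and 0.528 in doxorubicin, each near the lowest value listed. H1f4 on chromosome 13 was also low, with 0.726 FPM in vehicle and 0.646 in doxorubicin. H2bc6 carries the same values in all counts because its annotation runs to beside H1f4, and the highest summits lay inside H1f4. Another start of H2bc6, beside chr13:23585971-23586220, lay more than 1000 bp from either annotated end. Regions there were not counted, so these values do not describe that start.

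The length of the marked stretch differed more than its height. The regions near each histone gene summed to a median of 2288.5 bp in vehicle and 1408.5 bp in doxorubicin, while over all protein-coding genes the medians were 1445 bp and 1572 bp. The summed length was shorter in doxorubicin at 59 of the 62 genes (95.2%, Wilson interval 86.7 to 98.3), where 47.3% of all genes were shorter. That interval is too narrow because genes share regions. With each distinct set of regions counted once, the share was 96.2%. The median log2 ratio of length was −0.59 over the members and 0.03 over all genes. It was shorter by at least 1.5-fold at 31 members, where 18.2% of all genes were, and longer by as much at 1, H2ac11, where 25.2% of all genes were. The longer sum at H2ac11 included the H4c9 region named above, and its doxorubicin regions that overlapped its vehicle regions summed to 1079 bp against 1365 bp in vehicle. In the highest quartile of vehicle pileup the median log2 ratio of length was −0.62 for the 46 members and −0.10 for all 2633 genes. In the third quartile it was −0.45 for 11 members against 0.01, and in the lowest −0.86 for 5 members against 0.37. The threshold at which a region ends is fixed in the deposited lists, and the part of that threshold in the lengths was not tested.

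**Figure D2:**
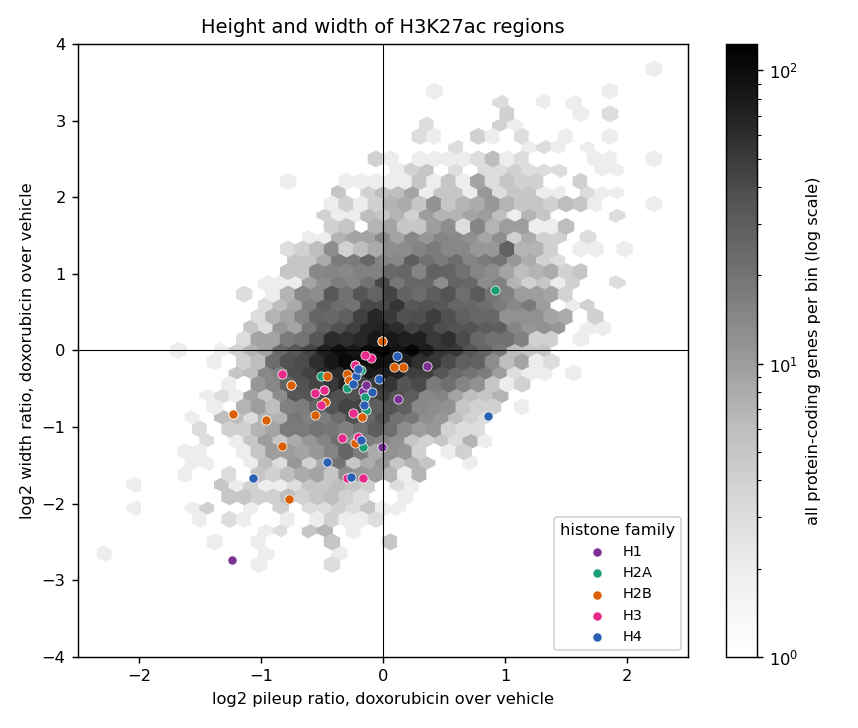
Each point is 1 of the 62 histone genes, coloured by family, with the log2 ratio of H3K27ac pileup, doxorubicin over vehicle, on the x axis and the log2 ratio of summed region length on the y axis; grey hexagons count all protein-coding genes per bin on a log scale, within the plotted range, and genes that share regions coincide. Of the 62 points, 59 lie below 0 on the y axis and 55 lie left of 0 on the x axis.

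All families took part in the shorter regions. Lengths were shorter in doxorubicin at all 12 H3 genes, all 12 H4 genes, all 7 H1 genes, 14 of 15 H2B genes and 14 of 16 H2A genes. The median log2 ratio of length was −0.67 for H2B, −0.64 for H3, −0.63 for H1, −0.63 for H4 and −0.51 for H2A. By cluster it was −0.64 on chromosome 3, where all 10 genes were shorter, and −0.54 on chromosome 13, where 47 of 50 were. The chromosome 13 members fell into 2 runs with mostly vomeronasal receptor genes between them, 22 members from H2bc13 to H2bc11 and 31 from H4c8 to H2ac1, and the medians of the runs were −0.54 and −0.55.

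**Figure D3:**
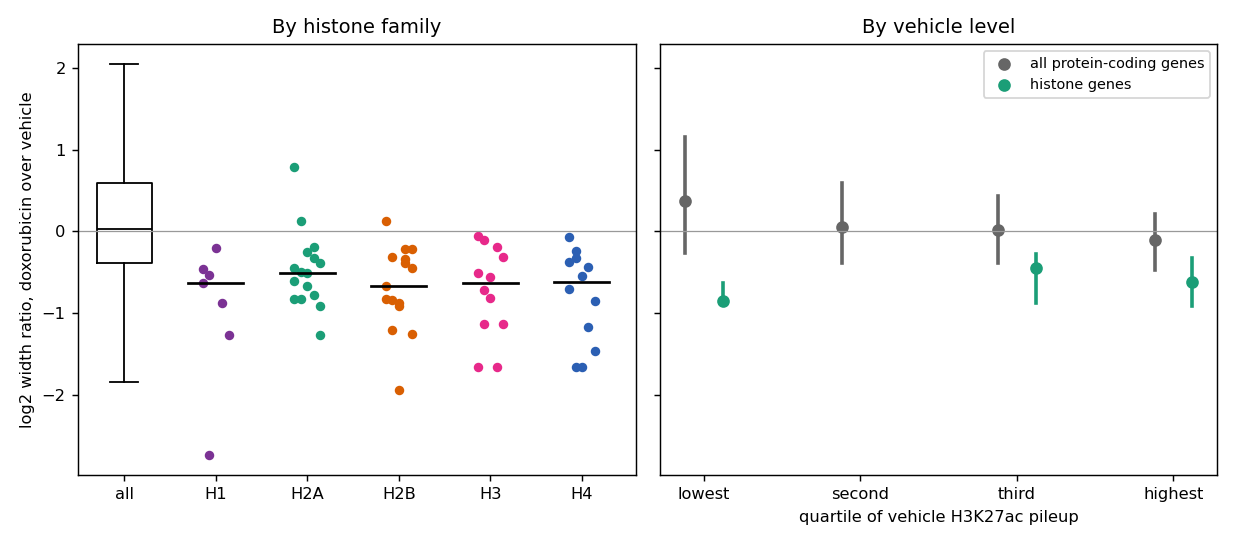
Left, the log2 ratio of summed H3K27ac region length, doxorubicin over vehicle (y axis), for each of the 62 histone genes by family with the family median as a bar, beside a box of all 10552 protein-coding genes (box from the first to the last quartile, line at the median, whiskers to the farthest gene within 1.5 box lengths). Right, medians (points) and quartile ranges (lines) of the same ratio by quartile of vehicle pileup; in the highest quartile the medians are −0.62 for histone genes and −0.10 for all genes, and the second quartile holds no histone gene.

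Individual lengths show how this arose on the map, and the genes in this paragraph were picked by length after the values were seen. H2bc13, H2ac13 and H3c10, neighbours at the edge of the chromosome 13 cluster, lay in 1 vehicle region of 3405 bp. In doxorubicin the same ground held 3 regions of 342, 546 and 529 bp, so the summed length near H2bc13 was 888 bp and that near H3c10 was 1075 bp. H4c18 and H2ac24 shared 1 vehicle region of 4740 bp, and in doxorubicin 3 regions of 934, 788 and 1041 bp were listed there. H1f2, which encodes linker histone H1.2, had heights of 4.79 and 4.75 FPM, a ratio of 0.992 (0.730 to 1.34), while its length was 5601 bp in vehicle and 2329 bp in doxorubicin. Those heights came from different places, since the vehicle summit lay past the end of the gene and the doxorubicin summit inside it. H2ac22 and H2bc22 had a length of 1633 bp in vehicle and 1776 bp in doxorubicin, and with H2ac11 they were the members that were not shorter. Of the 53 distinct vehicle regions at members, 9 (17.0%) overlapped 2 or more doxorubicin regions, against 8.66% of the regions at all protein-coding genes. In the other direction 2 of 59 doxorubicin regions (3.39%) overlapped 2 or more vehicle regions, against 6.22%. These shares were not matched for length, and the median summed length in vehicle was 2288.5 bp for members and 1445 bp for all genes.

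Position relative to the start was read for the 62 members with a known start, whether or not they had a region. At 250 bp downstream of the start, inside most of these short genes, 87.1% of the members were covered in vehicle and 91.9% in doxorubicin. At 250 bp upstream 69.4% were covered in vehicle and 38.7% in doxorubicin, and at the start itself 66.1% and 58.1%. At 1000 bp upstream the shares were 46.8% and 29.0%, and at 1000 bp downstream 50.0% and 25.8%. Over all 17492 starts the shares at 250 bp upstream were 29.6% and 28.1%, and at 1000 bp downstream 15.6% and 16.4%. For the 62 members, the shares at 50 bp downstream were 80.6% in vehicle and 67.7% in doxorubicin, and at 450 bp downstream 88.7% and 83.9%. The share of members covered was thus similar in both lists from 200 to 400 bp downstream of the start and lower in doxorubicin nearer the start and on both flanks. Where the start lay within 100 bp of a region in both lists, the median extent upstream was 808 bp in vehicle and 183 bp in doxorubicin and the median extent downstream 1011 bp and 683 bp (45 members). The median of the differences was −186 bp upstream and −157 bp downstream, and over 5577 genes of any kind it was −28 bp and −9 bp.

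**Figure D4:**
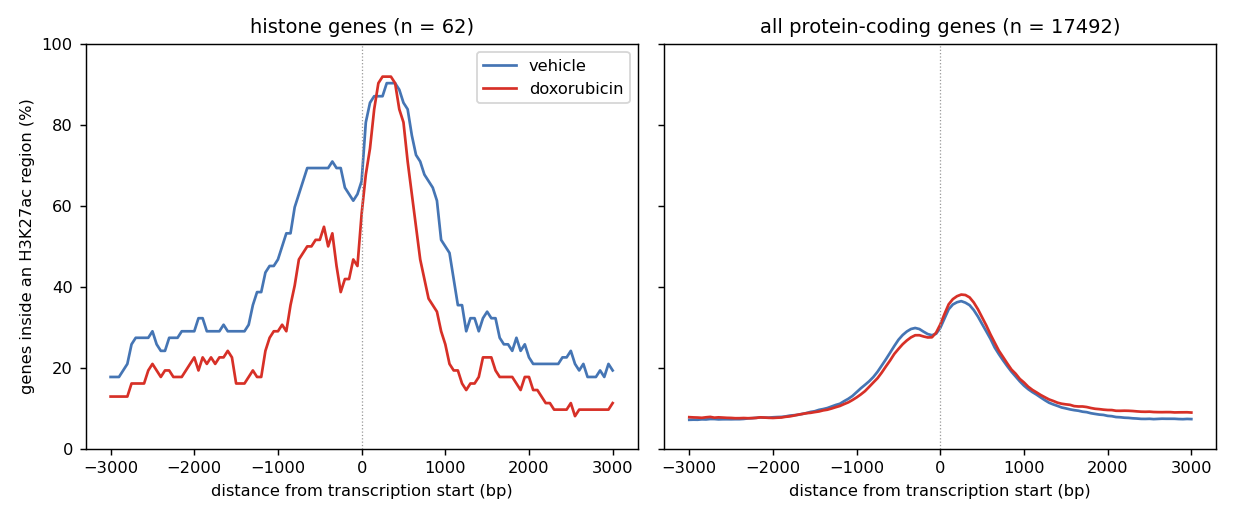
Share of starts (y axis, percent) that lie inside an H3K27ac region by distance from the transcription start (x axis, bp, negative upstream), for the 62 histone genes with a known start (left) and 17492 protein-coding genes (right), in vehicle and doxorubicin. The histone curves meet just downstream of the start and part on both flanks, at 69.4% and 38.7% at 250 bp upstream, while the curves of all genes lie close together.

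In a comparison added after the lists had been seen, the stretches between head-to-head genes were read for cover. They lie within the upstream ground described above, so they are not a separate measurement of it. There were 8 such histone pairs with both starts known and at most 250 bp apart. In vehicle the stretch lay wholly inside H3K27ac regions for 7 of the 8 pairs, and in doxorubicin for 4. The 3 pairs covered in vehicle only were H2bc13 with H2ac13 (chr13:21716184-21716411), H2bc23 with H2ac23 (chr13:21810200-21810366) and H2ac12 with H2bc12. Among all 440 protein-coding pairs of this kind, 8.41% were wholly covered in vehicle only and 5.68% in doxorubicin only. For H2ac12 and H2bc12, the vehicle region ran from 22034708 to 22036951, and the doxorubicin regions ran from 22034959 to 22035511 and from 22035832 to 22036468. The 177 bases printed above for this pair, with 3 CCAAT matches and the ATTTGCAT octamer, lie between those doxorubicin regions. H2ac15 with H2bc15, H2ac22 with H2bc22, H2ac8 with H2bc8 and H2bc7 with H2ac7 were wholly covered in both lists, and the stretch between H2ac11 and H2bc11 was covered in neither.

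H3K9me3 was rare at histone genes in both treatments, at 2 of 67 in vehicle and 2 in doxorubicin, where 5.88% and 7.49% of all protein-coding genes had it. H2bc4 had a region in vehicle only (chr13:23692700-23693210) with a deposited fold enrichment of 5.85, beside the end of its annotation that lies away from H2ac6. H1f7 had one in both lists, with folds of 4.87 in vehicle and 4.19 in doxorubicin. H1f0 had one in doxorubicin only, inside the gene, with a fold of 2.79. The shares of all genes were 0.801% for vehicle only and 2.41% for doxorubicin only. H2bc6 had H3K9me3 inside its long annotation in both lists, with folds of 6.82 in vehicle and 10.1 in doxorubicin. Those regions lay more than 1000 bp from either end and were not counted. The chromosome 13 span held 140 H3K9me3 regions in vehicle and 146 in doxorubicin, nearly all of them away from the histone genes, and the chromosome 3 span held 0 in each list.

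A p53 region was found at 3 of the 67 histone genes (4.48%; Wilson interval 1.53 to 12.4), where 2.77% of all protein-coding genes had one. Of these, H2ac22 and H2bc22 shared 1 region (chr13:21787313-21787780) with a deposited fold enrichment of 9.56, which covered 73.2% of the stretch between their starts printed above. That stretch held 4 CCAAT matches and 1 TATAAA match, and no p53 decamer. The p53 summit, at 21787539, lay past the stretch and inside H2bc22, where no motif was searched. Whether a p53 decamer lies under the summit was therefore not tested. H3K27ac at this pair measured 5.42 FPM in vehicle and 5.40 in doxorubicin. H1f7 had a p53 region (chr15:98257832-98258686) with a fold of 47.7 that began 525 bp from the gene and had its summit 999 bp from it. It overlapped an H3K27ac region listed in doxorubicin only and the H3K9me3 regions of both lists. H2bc6 had a p53 region inside its long annotation, with a fold of 14.3. That region lay more than 1000 bp from either end and was not counted, while the distance for H2bc6 is 0 bp. The chromosome 13 span held 10 p53 regions and the chromosome 3 span 1, and the median distance from a member to the nearest p53 region was 30987 bp.

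The untagged HA list, which shows where the antibody and chromatin give signal without p53, had a region at 2 members, where 1.41% of all genes had one. H2bc7 and H2ac7 shared that region (chr13:23573831-23574364), with a deposited fold of 7.63, and it covered part of the stretch between their starts. The p53 and untagged lists were called with different settings, so their counts stand side by side and are not compared. The input list had a region at 0 members, where 0.559% of all genes had one.

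The genes that serve histone expression were described from 3 lists. Of 19 genes for transcription and mRNA processing of histones, 18 had H3K27ac in vehicle and 16 in doxorubicin, and the median log2 ratio of pileup over the 16 with both was −0.10. Npat, the coactivator of the histone locus body, measured 2.03 and 1.70 FPM, and Slbp, whose product binds the stem-loop of histone mRNA, 7.31 and 7.04. The lowest ratio of this list was that of Ccne1, the cyclin E1 gene, at 1.79 and 0.763 FPM (ratio 0.426, interval 0.208 to 0.820), and the highest that of Ccne2, the cyclin E2 gene, at 0.726 and 1.29 (ratio 1.78, 0.881 to 3.68). Cstf2, a cleavage factor subunit, and Nfyc, a subunit of NF-Y, were listed in vehicle only, and Lsm11, of the histone-specific U7 particle, in neither list.

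Of 16 histone chaperone genes, 16 had H3K27ac in vehicle and 15 in doxorubicin, with a median log2 ratio of −0.09 over the 15 with both. Asf1b, which hands new H3 and H4 to assembly factors in dividing cells, measured 2.62 FPM in vehicle and 1.29 in doxorubicin (ratio 0.494, 0.286 to 0.824). Chaf1a, the large subunit of chromatin assembly factor 1, measured 1.40 and 2.82 (ratio 2.01, 1.24 to 3.30) and had a p53 region, as did Hat1, which acetylates new H4 and measured 4.02 and 6.63 (ratio 1.65, 1.23 to 2.22). Asf1a was listed in vehicle only. Nasp, which binds free H3, H4 and H1, measured 5.33 and 3.58 (ratio 0.672, 0.483 to 0.927). Npat, Slbp, Nasp and Hat1 were named beside the extremes of their lists after the values were seen.

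Of 9 replacement histone genes, which are transcribed outside S phase too and have introns or poly(A) mRNAs, 7 had H3K27ac in vehicle and 8 in doxorubicin. The median log2 ratio of pileup over the 7 with both was −0.39. Cenpa, the centromeric H3 gene, had the lowest ratio, with 3.54 and 2.29 FPM (ratio 0.647, 0.427 to 0.968). H2aj, an H2A variant gene on chromosome 6, had the highest, with 5.04 and 9.69 (ratio 1.92, 1.50 to 2.48), and it had a p53 region. Its length went the other way, from 4279 bp in vehicle to 2519 bp in doxorubicin. The median log2 ratio of length was −0.22 for the transcription and processing genes, 0.13 for the chaperones and −0.23 for the replacement histones. Each was nearer to 0 than the −0.59 of the members, which themselves include the replacement gene H1f0. For pileup, the median of the replacement histones lay farther from 0 than the −0.24 of the members. The medians of the other lists lay nearer.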

How the data were processed

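ChIP-seq of 14 libraries in 7 groups was deposited as 1 peak list per group. Reads were aligned with Bowtie2 2.2.6 to mm10, per the submitters' processing notes. Per the file headers, the authors ran MACS2 2.2.5 on each pair of pooled libraries at a q of 0.05, with 1 fragment allowed at a position. The histone mark and input lists had no control. Both HA lists had the input as control, the background being genome-wide for the untagged and local for the p53 list. The deposited signal is the fragment pileup at a summit, which MACS scaled to input depth in the HA lists. The deposited fold enrichment is the ratio of pileup to background, and the deposited −log10 q and lengths in bp were used as given.

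Summits of 1 interval were joined into 1 region with the values of its highest summit. Pileups were divided by the fragments of the list, in the HA lists by those of the input. Ratios carry 95% exact (Clopper-Pearson) intervals from the fragment counts and shares carry Wilson intervals. A summit is a chosen maximum and both cover counting error only. Genes came from RefSeq, where 21843 of 21900 protein-coding genes with 1 place on a main chromosome were used. Named genes are the members with the highest and lowest pileup ratios of each cluster, those with a mark in 1 list only, with no H3K27ac, or with an H3K9me3, p53, untagged or input region, all solitary members, and the extremes of each other list. The members and lists were chosen with earlier results of these data known. Alternatives changed the window, q minimum, fold, scaling, anchor, unit counted and measure of length. Region assignment was tested on simulated lists. Python 3.11.15, numpy 2.4.6, pandas 2.3.3, scipy 1.17.1 and matplotlib 3.10.9 were used.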

Additional observations from a re-analysis of the deposited data

How the results depend on the processing

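Of 55 values recomputed under alternatives, 45 stayed within the interval used or within 1.5 times of the value reported, and 10 moved. A change of direction could be scored only for the median log2 ratio of pileup, where 0 alternatives changed it. Those medians ran from −0.42 to −0.21. The interval used for them was the counting interval of 1 gene, H2bc7 (log2 −0.80 to 0.33). It spans 0, so a median inside it shows little beyond an unchanged sign. The number of members lower by pileup was 12 at 1.5-fold, 23 at a ratio of at most 0.8 and 5 at 2-fold, and 22 by the deposited fold enrichment. The number higher was 2 at 1.5-fold and 0 at 2-fold, and 1 with a window of 500 bp or when the doxorubicin region had to overlap the highest vehicle region of the gene. With a window of 500 bp, H3K9me3 was found at 1 member in vehicle and 1 in doxorubicin, and with a −log10 q of at least 5 at 0 in doxorubicin. With a window of 2500 bp, untagged regions were found at 4 members. The deposited fold enrichment moved the median log2 ratio of all genes to −0.16 and that of the members to −0.42, and the difference between them was −0.26 by fold and −0.25 by pileup. Those folds imply a genome-wide background of 0.130 FPM in vehicle and 0.145 in doxorubicin, as their definition, pileup plus 1 over background plus 1, was constant within each list. Across the alternatives the share of members with shorter regions ran from 88.7% (highest region alone) to 96.2% (each distinct set of regions once), and the count shorter by 1.5-fold from 25 to 31. Alternatives by overlapping region, by distinct set of regions, by window for lengths and by fold enrichment for the count were chosen after seeing the data. No paired analysis was possible because the 2 libraries of a group share 1 list, and for the same reason no library could be left out. Depth limits the low genes: at 10 and 18 fragments, as at H1f8 and H4c3 in vehicle, only large ratios can be told from 1.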

Other observations

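Some histone genes outside the symbols used here lie on chromosomes 6 and 11. H4f16, an H4 gene on chromosome 6, had an H3K27ac pileup of 12.98 FPM in vehicle and 4.87 in doxorubicin (ratio 0.375, 95% exact interval 0.290 to 0.482), and its region length was 1854 bp in vehicle and 912 bp in doxorubicin. H2aw, an H2A gene on chromosome 11, measured 2.71 and 1.94 FPM, H3f4 was listed in vehicle only at 0.484, and H2bu2 was listed in neither. H4f16 started higher than any of the 62 members and its ratio was lower than any of theirs.

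Within the chromosome 13 span lay 51 other protein-coding genes, most of them vomeronasal receptor genes without the mark. H3K27ac was found at 6 in vehicle and 6 in doxorubicin. The 5 with both, H4bc24 as the annotation spells it, Zfp184, Pom121l2, Zfp322a and Abt1, had a median log2 ratio of pileup of −0.14 and of length of −0.50. H4bc24 lies beside H2ac24 and meets the same regions. Of the protein-coding genes that span at most 1000 bp and are not members, 65 had regions in both lists. Their median log2 ratio of length was 0.18, with 28 shorter and 37 longer in doxorubicin, and their median log2 ratio of pileup was 0.12. Their vehicle median was 1.11 FPM against 3.17 for the members, so the sets were not matched in level. Over all genes in the lowest quartile of vehicle pileup, the medians were 0.37 for length and 0.39 for pileup.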
